A study of Mus musculus with 66 samples.

Results

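The genes described here encode the peptides and receptors of apelin and adrenomedullin signalling, together with the vascular growth factor VEGF-A. They are *Apln*, *Aplnr*, *Adm*, *Calcrl*, *Ramp2*, *Ramp3* and *Vegfa*. They are 7 of the 45706 gene identifiers quantified in the series and were listed by symbol. The list was drawn up with earlier results of the same libraries known, because *Apln* had differed between *Rorb* mutant and wild-type mice in many comparisons. For that reason the levels of *Apln* by genotype are a description, and the counts of calls printed for it support nothing. All 7 genes were above the low-count filter in every comparison.

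Apelin, the product of *Apln*, is a secreted peptide that acts through the G protein-coupled receptor APJ, the product of *Aplnr*. The pair is known for vessel growth and calibre, and *Apln* is a classical transcript of sprouting endothelial cells. Adrenomedullin, from *Adm*, is a vasodilator peptide that also protects the endothelial barrier. Its receptor is the calcitonin receptor-like receptor, from *Calcrl*, which reaches the cell surface and takes on its ligand preference only in a complex with a receptor activity-modifying protein. RAMP2 and RAMP3 make it an adrenomedullin receptor, while RAMP1 makes it the receptor for calcitonin gene-related peptide (CGRP). *Vegfa*, *Adm* and *Apln* are all textbook targets of the hypoxia-inducible factors, and in the central nervous system VEGF-A comes largely from astrocytes and other parenchymal cells.

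The 66 RNA-seq libraries came from mice homozygous for 1 of 5 spontaneous alleles of *Rorb*, the gene for the orphan nuclear receptor RORβ, and from wild-type mice. All 5 lines show a high-stepping gait. *Rorb* h1/h1 mice were on C57BL/6J and carry a duplication that includes the first exon of the *Rorb1* transcript. *Rorb* h2/h2 and h3/h3 mice were on the albino B6(Cg)-Tyr c-2J/J background, and their causal mutations are not known. The h4 mutation, a premature stop codon in exon 8, arose on B6.129S7-Il1r1 tm1Imx/J, a strain that lacks a functional *Il1r1* gene. Whether the h4/h4 mice sampled here still carry that *Il1r1* allele is not given in the sources used. *Rorb* h5/h5 mice were on DBA/1J and have lost the start codon of *Rorb1*. Brain hemisections and spinal cords were taken from the same 24 mice, aged 7.9 to 9.6 weeks: 3 C57BL/6J, 3 h1/h1, 4 h2/h2, 4 h3/h3, 4 h4/h4, 3 DBA/1J and 3 h5/h5. Cortex, hippocampus and cerebellum came from 6 other mice aged 7.0 weeks, 3 DBA/1J and 3 h5/h5. For h1 to h4 the controls were always the same 3 C57BL/6J mice, so those comparisons are not independent. The h2/h2, h3/h3 and h4/h4 mice carry animal identifiers of other series than the C57BL/6J controls, and neither strain background was sampled as wild type, so for these alleles the mutation, the background and the cohort cannot be told apart. The h1/h1 mice share an identifier series with their controls, as do all 3 h5/h5 mice of the brain and spinal cord set and 2 of the 3 of the regional set.

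Total counts were 32889755 to 59120536 per library, with a median of 42391893. The targeted gene was checked first. In brain *Rorb* averaged 55.4 CPM (the count scaled to a fixed library total, with TMM factors) in C57BL/6J, 36.1 in h1/h1, 29.3 in h2/h2, 53.4 in h3/h3 and 12.8 in h4/h4, against 58.6 in DBA/1J and 76.8 in h5/h5. The order was the same in spinal cord. Regional markers matched the labelled tissues with 1 exception. The brain library of DBA/1J replicate 1 had almost no transcripts of the cerebellum, with 0.16 TPM (a count per transcript length, scaled to a fixed total) of *Gabra6* against 42.9 to 114 in the 23 other brain libraries, and the differences of the 7 genes that rest on it are also given without it. In addition, 3 libraries, all from 1 h5/h5 mouse of the regional set, did not match their labelled sex. Without that mouse (replicate 3) the *Apln* log2 difference in h5/h5 was -1.55 in cortex, -1.73 in hippocampus and -0.38 in cerebellum, against -1.49, -1.47 and -0.24 with it. The replicates are separate mice by their labels, and p-values measure the spread between these mice.

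Promoters are shown for the 2 peptides because both genes are known hypoxia targets, while the genotype differences described below concern *Apln*, in mutants of a nuclear receptor that binds DNA. The stretch is the 250 bases before the annotated start, from RefSeq on GRCm38.p6, written 5′ to 3′ on the strand of the gene. The *Apln* stretch is chrX:48034854-48035103 (minus strand) and the *Adm* stretch is chr7:110627407-110627656 (plus strand). Capitals mark matches on either strand to the hypoxia response core ACGTG or GCGTG.
Apln: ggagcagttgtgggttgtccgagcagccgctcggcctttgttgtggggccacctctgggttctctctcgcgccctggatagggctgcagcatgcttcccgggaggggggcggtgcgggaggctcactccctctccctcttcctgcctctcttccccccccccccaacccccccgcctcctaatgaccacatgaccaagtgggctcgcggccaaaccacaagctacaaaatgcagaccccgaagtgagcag
Adm: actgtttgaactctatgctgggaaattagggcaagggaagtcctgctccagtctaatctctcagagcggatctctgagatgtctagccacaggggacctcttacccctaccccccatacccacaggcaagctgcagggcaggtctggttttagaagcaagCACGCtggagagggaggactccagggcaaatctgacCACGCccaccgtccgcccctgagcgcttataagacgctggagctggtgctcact

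The *Adm* stretch holds 2 such cores and the *Apln* stretch 0. Over windows that also include the 50 bases after the start, there was 1 core at *Calcrl*, 2 at *Ramp3*, and 0 and 2 at the first and the second listed start of *Vegfa*. The same core occurs in 43.8% of all 32851 RefSeq promoters of that length. The ROR core AGGTCA, searched on both strands, was in 0 of the 6 promoters available for 5 of the genes and in 16.3% of all promoters. *Aplnr* and *Ramp2* were not among the sequences. These are letter matches in a short window and not binding sites.

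The genes lie on 5 chromosomes (GRCm38.p6). *Apln* (ENSMUSG00000037010) is at chrX:48025146-48034853. *Aplnr* (ENSMUSG00000044338) and *Calcrl* (ENSMUSG00000059588) are on the same chromosome, at chr2:85136360-85139923 and chr2:84330626-84425405. *Ramp2* (ENSMUSG00000001240, chr11:101246334-101248250) and *Ramp3* (ENSMUSG00000041046, chr11:6658506-6677478) share chromosome 11. *Adm* (ENSMUSG00000030790) is at chr7:110627657-110629820 and *Vegfa* (ENSMUSG00000023951) at chr17:46016993-46032377.

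Per length, *Vegfa* was the most abundant of the 7 genes in the median of all 66 libraries, at 63.8 TPM (range 47.4 to 119). *Ramp2* followed at 23.8 TPM (17.4 to 40.9), then *Apln* at 16.8 (1.71 to 49.0), *Ramp3* at 13.4 (1.70 to 27.4) and *Calcrl* at 6.56 (4.02 to 22.2). *Adm* was low everywhere, at 2.21 TPM (1.05 to 5.80), which rests on 22 to 140 reads per library. As a ratio of highest to lowest level, *Aplnr* had the widest range, from 0.17 to 19.3 TPM. Its level was 10.7 to 19.3 TPM in spinal cord but at most 2.17 in every other tissue, where 15 to 104 reads were counted per library. In brain the receptor partners *Ramp2* (median 22.0 TPM) and *Ramp3* (16.4) were both above *Calcrl* (5.48), whereas in spinal cord *Ramp2* (23.3) was above *Calcrl* (12.3) and *Ramp3* (2.61) below it.

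**Figure D1:**
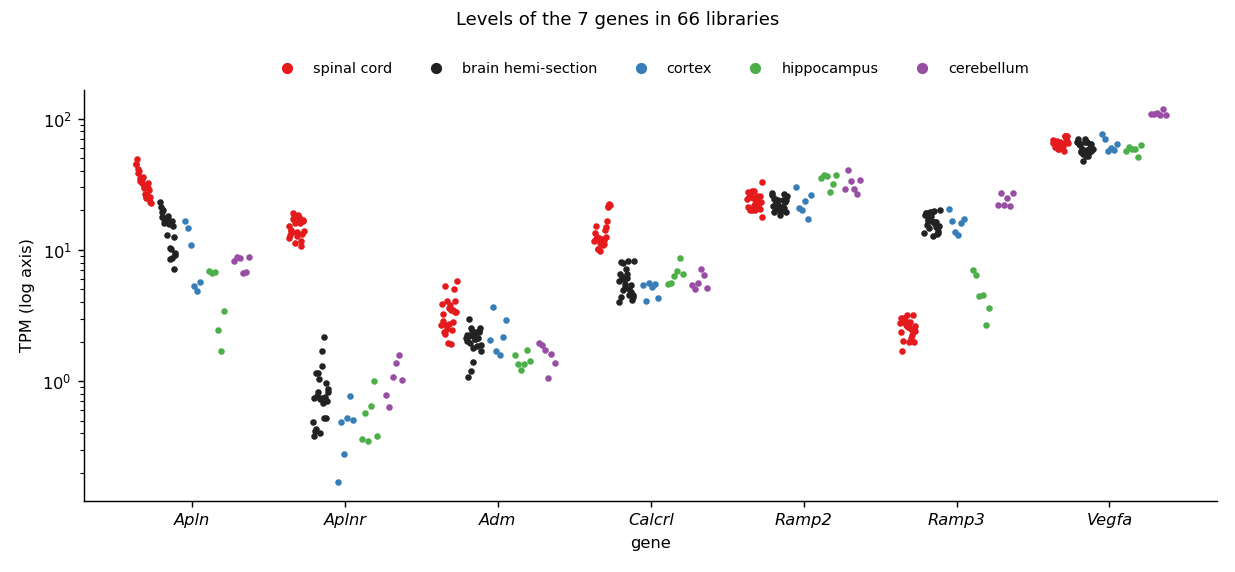
Levels of the 7 genes in TPM (logarithmic axis) by tissue in all 66 libraries, each point 1 library. *Aplnr* is at 10.7 to 19.3 TPM in spinal cord and at most 2.17 TPM elsewhere, *Ramp3* is at 1.70 to 3.22 TPM in spinal cord and 12.9 to 20.2 in brain, and *Vegfa* is highest in cerebellum, at 107 TPM or more.

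Ordering the levels over the 20 groups of tissue and genotype separated few neighbours from each other. For *Apln*, 13 of the 19 steps between neighbouring groups overlapped in their libraries. For the other genes the overlapping steps were 18 for *Aplnr*, 19 for *Adm*, 17 for *Calcrl*, 19 for *Ramp2*, 17 for *Ramp3* and 18 for *Vegfa*. In this order *Apln* stood highest in the spinal cord of C57BL/6J mice, at 74.2 CPM ± 2.28 (SD, n = 3), and lowest in the hippocampus of h5/h5 mice, at 3.71 ± 1.16 (n = 3).

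*Apln* was lower in the mutants than in their wild-type controls in all 13 genotype comparisons, by 8.55% to 64.3%. The difference was widest for *Rorb* h4/h4 in brain and for *Rorb* h5/h5 in cortex and hippocampus, and narrowest for *Rorb* h1/h1. These values are part of why the gene was chosen. The levels per mouse follow, in CPM, which compares libraries and not genes. Because the tissues were taken in bulk, fewer cells of a type that makes a transcript and less transcript per cell cannot be told apart.

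In spinal cord, *Apln* was at 73.4, 72.3 and 76.7 CPM in the C57BL/6J mice and at 66.1, 69.3 and 67.1 in *Rorb* h1/h1. The h2/h2 mice had 52.1, 54.9, 55.0 and 55.7 CPM and the h3/h3 mice 52.2, 56.0, 52.6 and 48.5. The h4/h4 mice were the lowest of these alleles, with 44.4, 40.8, 40.5 and 43.9 CPM. Every mutant library of these 4 alleles was thus below every C57BL/6J library. The fitted log2 differences were -0.13 (SE 0.04) for h1/h1, -0.44 (SE 0.04) for h2/h2, -0.50 (SE 0.05) for h3/h3 and -0.81 (SE 0.04) for h4/h4. On DBA/1J the wild-type mice had 52.1, 49.4 and 43.4 CPM and the h5/h5 mice 36.4, 40.4 and 35.4, a log2 difference of -0.36 (SE 0.07), again without overlap.

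In brain the levels were lower and the spread relative to the level was larger. The C57BL/6J libraries had 37.9, 31.4 and 30.5 CPM of *Apln*, and the h1/h1 libraries 29.0, 31.3 and 27.0. The h1/h1 values overlapped those of the controls, with a log2 difference of -0.17 (SE 0.09). The h2/h2 mice had 25.1, 26.3, 28.2 and 25.8 CPM (log2 difference -0.33, SE 0.08) and the h3/h3 mice 20.7, 28.5, 25.7 and 26.1 (-0.39, SE 0.11). In h4/h4 the 4 values were 16.1, 12.8, 17.2 and 14.7 CPM, which is 54.2% lower than in C57BL/6J (log2 difference -1.13, SE 0.11). In DBA/1J the levels were 26.8, 24.6 and 20.2 CPM and in h5/h5 11.5, 13.9 and 13.8, a log2 difference of -0.86 (SE 0.12), or -0.77 without the DBA/1J library that lacks cerebellar transcripts. The h2/h2, h3/h3, h4/h4 and h5/h5 libraries all lay below those of their controls.

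**Figure D2:**
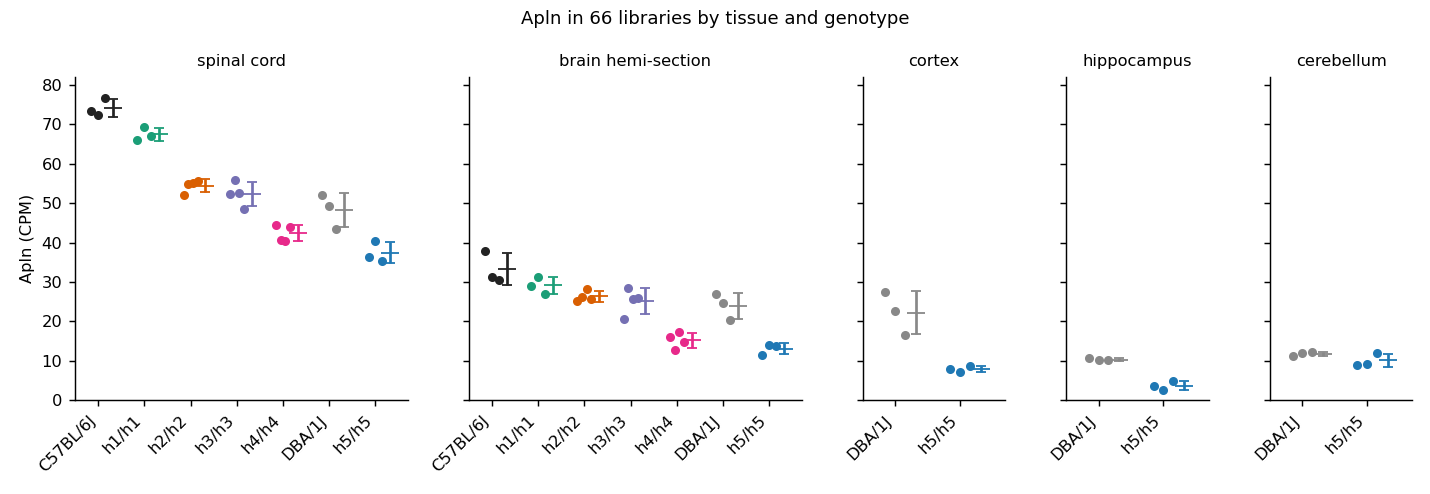
*Apln* in CPM (TMM-scaled) in each of the 66 libraries, 1 panel per tissue. Points are libraries, and the bar and whiskers are the mean ± SD of a group of 3 or 4 mice. Mutant groups lie below their wild-type controls in every panel, with overlap in brain h1/h1 and cerebellum h5/h5.

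Within the brain of *Rorb* h5/h5 mice the difference was not of the same size in each region. Cortical *Apln* was at 27.4, 22.7 and 16.6 CPM in DBA/1J and at 8.03, 7.17 and 8.60 in h5/h5. Hippocampal *Apln* was at 10.7, 10.1 and 10.1 CPM in DBA/1J and at 3.66, 2.56 and 4.89 in h5/h5. These are differences of 64.3% in cortex and 63.8% in hippocampus, and the genotypes did not overlap in either. In cerebellum the DBA/1J mice had 11.3, 11.9 and 12.2 CPM and the h5/h5 mice 9.05, 9.18 and 12.1, a difference of 15.1% with overlapping values. The overlap came from the library at 12.1 CPM, of the mouse that did not match its labelled sex. Without it both other h5/h5 libraries lay below DBA/1J, with a log2 difference of -0.38. The log2 differences were -1.49 (SE 0.18) in cortex, -1.47 (SE 0.20) in hippocampus and -0.24 (SE 0.12) in cerebellum. Whether the effect of the allele differs between regions was not tested.

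The groups of mice did not overlap in 11 of the 13 *Apln* comparisons. Over all genes and comparisons, mutants lay wholly below wild type in 6.56% of 225745 gene-by-comparison pairs. In edgeR's quasi-likelihood test over all genes, *Apln* was under an adjusted p of 0.05 in 4 comparisons. These were the h4/h4 brain, where 0.703% of the genes tested passed, and the spinal cords of h2/h2 (2.09%), h3/h3 (1.01%) and h4/h4 (1.75%). The shares of genes passing elsewhere were 0.136% in h2/h2 and 0.164% in h3/h3 brain, 0.289% in h1/h1 and 0.00581% in h5/h5 spinal cord, 0.0118% in h5/h5 hippocampus and 0.0120% in h5/h5 cerebellum. In edgeR 0% of genes passed in h1/h1 brain, h5/h5 brain and h5/h5 cortex, where 745, 1003 and 1106 genes had an unadjusted p under 0.05 and DESeq2 called 17, 68 and 59. DESeq2 called *Apln* in 10 of the 13 comparisons and edgeR without a low-count filter in 8, against 0.811% and 0.918% of all gene-by-comparison pairs. Since the gene was chosen on these comparisons, the counts are descriptive. *Apln* was lower in the mutants in all 78 fits under other settings and in all 84 fits that left out 1 library.

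**Figure D3:**
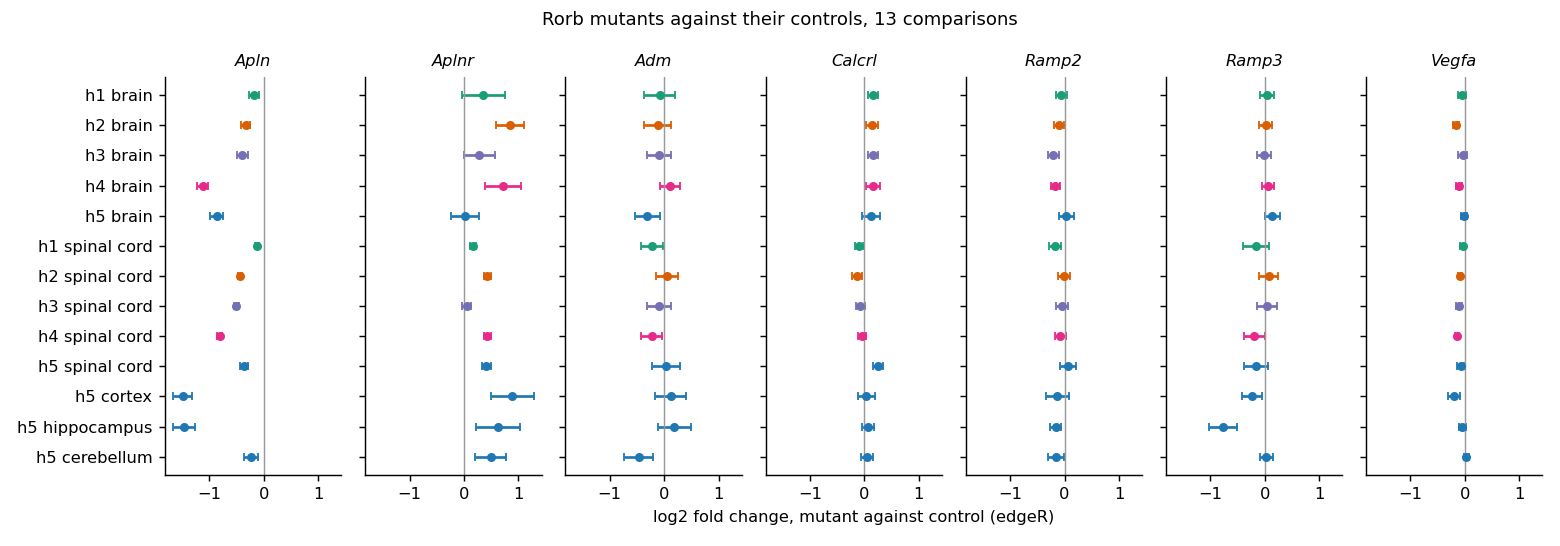
Log2 difference between mutant and wild-type mice, with its SE from edgeR, for each of the 7 genes in the 13 genotype comparisons. *Apln* is below 0 in all 13, *Aplnr* above 0 in all 13 (0.02 to 0.89, turning to -0.05 in h5/h5 brain with sex as a covariate), and *Vegfa* stays between -0.20 and 0.03.

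*Aplnr*, which encodes the apelin receptor, was higher in the spinal cords of 2 of the 5 alleles. Its fitted log2 difference was above 0 in all 13 comparisons, with a median of 0.42, but turned below 0 in 1 of 78 fits under other settings (h5/h5 brain, with sex as a covariate) and in 4 of 84 fits that left out 1 library. It passed edgeR's test in the spinal cords of *Rorb* h2/h2 and h4/h4 mice. Spinal cord levels were 24.005, 26.5 and 24.1 CPM in C57BL/6J, against 35.6, 32.0, 35.5 and 30.7 in h2/h2 and 36.5, 33.6, 32.0 and 31.7 in h4/h4. *Aplnr* therefore rose by 0.43 (SE 0.06, edgeR adjusted p = 0.00119) in h2/h2 and by 0.42 (SE 0.06, edgeR adjusted p = 0.00287) in h4/h4 on the log2 scale, and no mutant library overlapped a control. Both calls held under every alternative setting and with any single library left out. The comparisons of h1 to h4 share their C57BL/6J libraries, so neither the 2 calls nor the 13 signs are independent of each other.

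The remaining spinal cords gave smaller or less certain values for *Aplnr*. The h1/h1 mice had 28.3, 28.0 and 27.1 CPM, all above C57BL/6J, with a log2 difference of 0.17 (edgeR adjusted p = 0.276). The h3/h3 mice, with 21.8, 28.2, 27.9 and 24.8 CPM, overlapped the controls (log2 difference 0.05, edgeR adjusted p = 0.865). On DBA/1J the levels were 22.2, 21.3 and 24.1 CPM in wild type and 31.3, 32.2 and 25.7 in h5/h5. That difference of 0.41 (SE 0.09) was about as large as in h2/h2 and h4/h4 and the groups did not overlap, but it missed the threshold in edgeR (adjusted p = 0.308) and passed it in DESeq2 (adjusted p = 0.0043) and in a single fit of all spinal cord groups (adjusted p = 0.04).

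In the brain and its regions *Aplnr* was near the limit of counting. In brain the levels were 0.957, 1.33 and 0.718 CPM in C57BL/6J and 1.44, 1.55, 2.19 and 1.96 in h2/h2, the only mutant group there that lay wholly above its controls (log2 difference 0.84, edgeR adjusted p = 0.426). The h4/h4 values of 2.45, 1.22, 1.91 and 1.03 CPM overlapped the controls (0.72, edgeR adjusted p = 0.374). The other brain differences were 0.36 for h1/h1, 0.28 for h3/h3 and 0.02 for h5/h5 (0.04 without the DBA/1J library that lacks cerebellar transcripts). In the regions of h5/h5 mice they were 0.89 (cortex), 0.63 (hippocampus) and 0.49 (cerebellum), with overlapping groups, and 0.99, 0.94 and 0.59 without the mouse that did not match its labelled sex. None of these passed edgeR's test. Across the 13 comparisons 7 had an unadjusted p under 0.05, against 9.31% of all edgeR tests in these comparisons. The mutants lay wholly above wild type in 5, against 5.45% of all gene-by-comparison pairs.

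**Figure D4:**
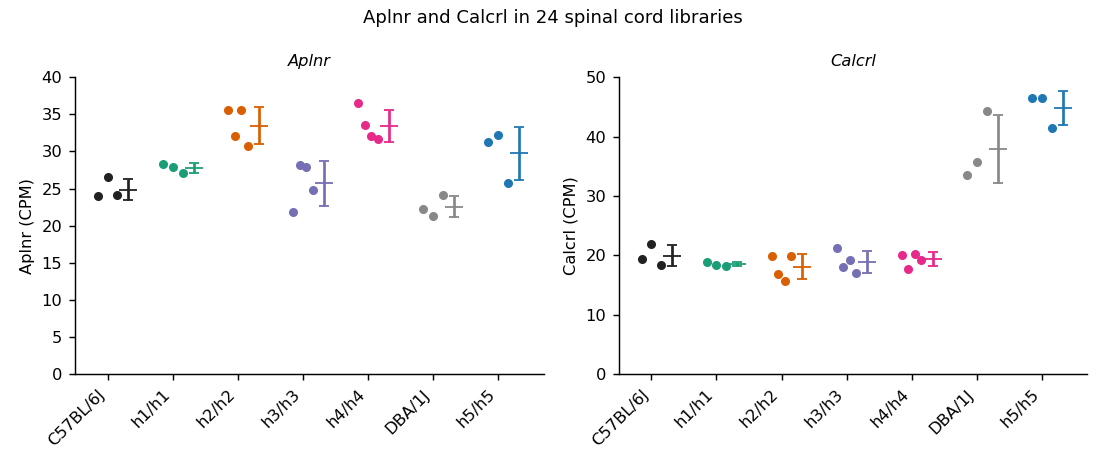
*Aplnr* and *Calcrl* in CPM (TMM-scaled) in the 24 spinal cord libraries, by genotype, with points for libraries and bars for the mean ± SD of 3 or 4 mice. *Aplnr* is at 30.7 to 36.5 CPM in h2/h2 and h4/h4 and at most 26.5 in C57BL/6J, while *Calcrl* separates the strains in CPM, at 33.6 or more in DBA/1J and h5/h5. In TPM the *Calcrl* levels of the wild-type strains overlap.

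The adrenomedullin system and *Vegfa* showed no call between genotypes. *Adm*, *Calcrl*, *Ramp2*, *Ramp3* and *Vegfa* together gave 65 tests in edgeR, of which 0 passed, 5 had an unadjusted p under 0.05, and 0 passed in DESeq2. Over all genes and the 13 comparisons, 0.478% of edgeR's tests passed and 9.31% had an unadjusted p under 0.05, and the counts for the lists below stand beside the same shares. *Adm* ranged from -0.47 (h5/h5 cerebellum) to 0.18, with 0 unadjusted p-values under 0.05, and its SEs of up to 0.30 leave room for sizeable differences. *Calcrl* ranged from -0.14 to 0.25, the latter in h5/h5 spinal cord, where DBA/1J had 33.6, 35.7 and 44.4 CPM and h5/h5 46.4, 46.4 and 41.4 (SE 0.10, edgeR adjusted p = 0.549). *Ramp2* ranged from -0.20 to 0.06 and was below 0 in 11 of 13 comparisons. Without the DBA/1J library that lacks cerebellar transcripts, the h5/h5 brain differences were -0.35 for *Adm*, 0.25 for *Calcrl*, -0.05 for *Ramp2*, 0.20 for *Ramp3* and -0.05 for *Vegfa*, with 0 calls.

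*Ramp3*, the second adrenomedullin receptor partner, ranged from -0.76 to 0.14. Its lowest value was in h5/h5 hippocampus, where it averaged 1.83 CPM ± 0.467 against 3.11 ± 0.764 in DBA/1J (SD, n = 3 each). The groups overlapped and the edgeR adjusted p was 0.997. *Vegfa* stayed in a narrow range, from -0.20 to 0.03, and was below 0 in 12 of 13 comparisons. The mutants lay wholly below the controls in 2, against 6.56% of all gene-by-comparison pairs. In h2/h2 brain *Vegfa* was at 56.6 to 62.9 CPM against 63.2 to 70.7 in C57BL/6J (log2 difference -0.16, SE 0.06, edgeR adjusted p = 0.546). In h4/h4 spinal cord it was at 62.2, 63.9, 67.2 and 64.9 CPM against 74.2, 70.9 and 68.9 in C57BL/6J, without overlap. That log2 difference of -0.15 (SE 0.04) had an edgeR adjusted p of 0.0853, and 0.035 when genes of low count were also tested.

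The wider pathway was read from gene lists. Of the VEGF ligands and receptors (9 genes) 0 of 117 tests passed in edgeR, with 12 unadjusted p-values under 0.05 and 0 calls in DESeq2. Their summed level was wholly higher in h5/h5 hippocampus (171.2 to 189.4 against 160.7 to 171.1 TPM in DBA/1J) and wholly lower in h1/h1 spinal cord (128 to 133 against 133.3 to 140.4 in C57BL/6J). The median log2 difference per comparison was -0.09 to 0.08, against -0.0031 to 0.0050 over all genes. Of the relatives of the 2 peptide systems, 1 of 78 tests passed. This was *Calca*, the gene for calcitonin and CGRP, which fell by 0.47 (SE 0.06, edgeR adjusted p = 0.000283) in h2/h2 spinal cord. The sum of these relatives was wholly lower in the spinal cords of h2/h2 (110.5 to 113.7 against 123 to 135 TPM) and h5/h5 (96.6 to 101.8 against 102.0 to 102.3). Processing and clearance enzymes (5 genes) gave 0 calls in 65 tests, with 10 unadjusted p-values under 0.05 and 0 calls in DESeq2, and a sum that was wholly higher in h5/h5 cortex (179 to 184 against 152 to 176 TPM). Endothelial tip cell genes gave 0 in 61, with 6 and 0, although their sum was wholly higher in the mutants in h1/h1 brain (7.43 to 8.19 against 5.94 to 7.02 TPM), h3/h3 brain (7.50 to 8.08) and h5/h5 brain (8.83 to 10.6 against 6.04 to 7.69, or 6.76 to 7.69 without the library that lacks cerebellar transcripts).

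Among 22 genes of the hypoxia-inducible factor pathway, 8 of 279 tests passed in edgeR, all in the direction of lower expression in the mutants. *Slc2a1*, the glucose transporter of the blood-brain barrier and glia, accounted for 4 of them. It fell by 0.33 (SE 0.05) in h4/h4 brain, by 0.22 in h2/h2, by 0.23 in h3/h3 and by 0.21 in h4/h4 spinal cord. *P4ha1*, a collagen prolyl hydroxylase, fell by 0.52 in h3/h3 and by 0.38 in h4/h4 spinal cord. The glycolytic genes *Pfkfb3* (-0.35 in h4/h4 brain) and *Ldha* (-0.19 in h2/h2 spinal cord) made up the rest. The median of the list was -0.08 to 0.01 per comparison, and its summed level was wholly lower than in C57BL/6J in the spinal cords of h1/h1, h3/h3 and h4/h4. *Hif1a* and *Epas1*, which encode the factors themselves, were not among the calls.

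Markers of the cell types that could carry these transcripts are given beside the genotype results. Of 11 endothelial genes 0 of 143 tests passed in edgeR, with 17 unadjusted p-values under 0.05 and 1 call in DESeq2, and none was at 0 in any group. Their summed level in spinal cord was 215 to 225 TPM in C57BL/6J, 219 to 247 in h2/h2 and 207 to 230 in h4/h4. In cortex it was 183 to 288 TPM in DBA/1J and 196 to 231 in h5/h5. The endothelial sum overlapped between mutants and wild type in all 13 comparisons, as did that of the oligodendrocyte genes. Mural cell genes gave 0 calls in 104 edgeR tests, with 17 unadjusted p-values under 0.05 and 7 calls in DESeq2. Their sum was nevertheless wholly lower in the mutants in 3 comparisons. In h5/h5 hippocampus it was 165 to 186 TPM, against 200 to 224 in DBA/1J. It was also lower in h3/h3 brain (175 to 191 against 195 to 212 TPM) and in h1/h1 spinal cord (151.5 to 156.5 against 158.6 to 165.1 TPM). The part of mural cells in the *Apln* differences was not tested.

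Sums of other cell types also shifted. The 5 astrocyte genes summed to 532 to 641 TPM in DBA/1J cortex and 647 to 713 in h5/h5, and to 749 to 773 against 878 to 936 in hippocampus. In cerebellum the sums were 1184 to 1233 and 1279 to 1290 TPM, and in brain 642 to 691, with or without the library that lacks cerebellar transcripts, and 738 to 942. In spinal cord the astrocyte sum overlapped that of the controls for all 5 alleles. Of 65 tests of the astrocyte genes 2 passed in edgeR, with 20 unadjusted p-values under 0.05 and 11 calls in DESeq2. The 2 were *Slc1a3* (0.27 in h4/h4 spinal cord) and *Aqp4* (-0.17 in h2/h2 spinal cord). The neuronal genes *Gad1* and *Syt1* passed in h2/h2 and h4/h4 spinal cord at -0.13 to -0.20, and the meningeal gene *Col1a2* at 0.28 and 0.52. The neuronal sum was wholly below C57BL/6J (2492 to 2601 TPM) in the spinal cords of h1/h1 (2234 to 2328), h2/h2 (2312 to 2426) and h4/h4 (2290 to 2460). The meningeal sum was wholly higher in h5/h5 cortex (38.1 to 51.5 against 26.7 to 33.7 TPM), h5/h5 brain (57.1 to 71.4 against 41.1 to 51.6, or 41.1 to 49.7 without that library) and h4/h4 spinal cord (31.6 to 35.8 against 26.6 to 30.8). *Apln* was lower without overlap in these 3 comparisons, but it was so in 11 of all 13. The haemoglobin gene *Hba-a1* passed at -0.38 to -0.49 in h2/h2 brain and spinal cord and in h3/h3 brain, and the blood sum was wholly lower in h2/h2 brain and in h3/h3 brain and spinal cord. Of the genes of oligodendrocyte precursors, *Gpr17* passed in h1/h1 spinal cord (-0.25, SE 0.05, edgeR adjusted p = 0.0339), and their sum was wholly lower there and in h3/h3 spinal cord. In h5/h5 cerebellum the choroid plexus sum was 12.6 to 2050 TPM against 2570 to 3729 in DBA/1J, while the blood, microglial and oligodendrocyte precursor sums were wholly higher. The part of these shifts in the *Apln* and *Aplnr* differences was not tested.

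The wild-type strains also differed. The C57BL/6J mice were aged 8.0 weeks and the DBA/1J mice 8.4 to 8.9 weeks, with animal identifiers of different series. Strain, age and cohort therefore cannot be told apart here. DBA/1J had less *Apln* than C57BL/6J in both tissues and more *Calcrl* in spinal cord. These 3 of 14 tests passed in edgeR, where 11.2% of all genes passed in brain and 21.3% in spinal cord. *Apln* was lower in DBA/1J by 0.63 in spinal cord (SE 0.06, edgeR adjusted p = 6.84e-06), and the 3 mice of each strain did not overlap. In brain the log2 difference was -0.47 (SE 0.12, edgeR adjusted p = 0.0342). It was -0.57 (edgeR adjusted p = 0.0143) without the DBA/1J library that lacks cerebellar transcripts. The brain call was lost with sex as a covariate (adjusted p = 0.0533) and in 4 of the 6 fits that left out 1 library, which gave differences of -0.52 to -0.36.

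*Calcrl* was at 19.4, 21.9 and 18.4 CPM in the spinal cord of C57BL/6J and at 33.6, 35.7 and 44.4 in DBA/1J. The difference of 0.92 (SE 0.10, edgeR adjusted p = 2.11e-05) is 1.89-fold in CPM. On the TPM scale the means were 13.5 and 17.7, and the libraries of the strains overlapped (11.65 to 15.22 against 15.06 to 21.46). The mean effective length that RSEM assigned to *Calcrl* was 2714 to 3083 bases over the groups on C57BL/6J-related backgrounds and 3216 to 4141 over those on DBA/1J, so the strains also differ in the transcript lengths inferred for this gene. In brain *Calcrl* was at 8.64, 7.84 and 8.72 CPM against 11.8, 9.75 and 8.80 (log2 difference 0.27, edgeR adjusted p = 0.189). The value of 11.8 CPM is that of the DBA/1J library that lacks cerebellar transcripts, without which the difference was 0.14 (edgeR adjusted p = 0.509). *Aplnr*, *Adm*, *Ramp2*, *Ramp3* and *Vegfa* passed in neither tissue. Among related genes, *Calca* (-0.58), *Calcb* (-0.40) and *Ramp1* (-0.31), which encode CGRP peptides and their receptor partner, were lower in DBA/1J spinal cord, as were *Pdk1* (-0.73) and *Epas1* (-0.25) of the hypoxia list. Cell type markers also differed between the strains. Over both tissues edgeR called 3 of 22 endothelial, 1 of 16 mural and 3 of 10 astrocyte tests. It called 2 of 10 oligodendrocyte, 3 of 10 microglial and 0 of 12 neuronal tests. The part of these shifts in the strain differences was not tested.

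*Aplnr* and *Ramp3* differed most between spinal cord and brain. In wild type, 11 of 14 tests passed in edgeR, in a comparison in which 56.9% of all genes passed in C57BL/6J and 50.8% in DBA/1J. *Aplnr* was 25.0-fold higher in spinal cord in C57BL/6J (log2 difference 4.64, edgeR adjusted p = 2.44e-11) and 15.5-fold in DBA/1J (3.95, edgeR adjusted p = 7.61e-08). *Apln* itself was 1.15 higher on the log2 scale in C57BL/6J (edgeR adjusted p = 2.14e-08) and 1.00 higher in DBA/1J (edgeR adjusted p = 3.87e-05). Ligand and receptor of the apelin pair were thus both higher in spinal cord than in brain.

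The 2 partners of *Calcrl* did not follow it. *Calcrl* was higher in spinal cord by 1.24 (edgeR adjusted p = 5.27e-08) in C57BL/6J and by 1.89 (edgeR adjusted p = 2.01e-06) in DBA/1J. *Ramp3* fell from 7.62, 9.15 and 10.3 CPM in C57BL/6J brain to 1.54, 1.67 and 1.25 in spinal cord, a log2 difference of -2.62 (edgeR adjusted p = 7.84e-09), and by 2.48 (edgeR adjusted p = 9.62e-07) in DBA/1J. *Ramp2* differed by 0.07 (SE 0.11) and -0.03 (SE 0.12), with edgeR adjusted p-values of 0.607 and 0.85. *Ramp1*, which turns *Calcrl* into the CGRP receptor, was 0.51 higher in C57BL/6J spinal cord, and the CGRP genes *Calca* and *Calcb* were higher by 4.01 and 4.198. In DBA/1J *Calca* and *Calcb* were higher by 2.76 and 3.34, and *Ramp1* was not among the calls. Without the DBA/1J brain library that lacks cerebellar transcripts they were higher by 2.98 and 3.33, and *Ramp1* passed at 0.21 (edgeR adjusted p = 0.0315). The interaction of tissue and strain was -1.25 for *Calca* (SE 0.24, edgeR adjusted p = 0.0448), a call that was lost without that library (-1.03, edgeR adjusted p = 0.0993).

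*Adm* was modestly higher in spinal cord, by 0.63 in C57BL/6J (edgeR adjusted p = 0.0199) and 0.77 in DBA/1J (edgeR adjusted p = 0.0236). The first call was lost in DESeq2 (adjusted p = 0.0503) and without spinal cord C57BL/6J replicate 2 (0.0819), and the second in 4 of the 6 fits that left out 1 library, among them the one without the DBA/1J brain library described above (0.0535). *Vegfa* was nearly level, at 0.10 (edgeR adjusted p = 0.171) and 0.22 (edgeR adjusted p = 0.0325). The DBA/1J call for *Vegfa* was also lost in 4 of 6 such fits (0.0647 without that brain library). Without that library the DBA/1J differences were 1.09 for *Apln*, 3.97 for *Aplnr*, 2.01 for *Calcrl*, -0.11 for *Ramp2* and -2.42 for *Ramp3*. Endothelial genes did not share the spinal cord excess. In C57BL/6J 1 of 11 was higher and 5 were lower, among them *Cdh5* (-0.36) and *Pecam1* (-0.31), and in DBA/1J 0 were higher and 2 lower (0 and 0 without that library). Other cell types differed between the tissues in both strains. All 5 oligodendrocyte genes were higher in spinal cord, as were 3 of 5 astrocyte genes in C57BL/6J and 4 in DBA/1J, while all 6 choroid plexus genes were lower. The astrocyte list went both ways, with *Slc1a3* lower in DBA/1J spinal cord (-2.13 without that library). Over both strains edgeR also called 12 of 12 neuronal and 13 of 16 mural tests. In DBA/1J without that library 2 of 6 neuronal genes were higher and 4 lower, among them *Slc17a7* (-6.89) and *Syt1* (-2.50). Of 8 mural genes 2 were higher and 4 lower there. The part of these shifts in the tissue differences was not tested.

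The 24 mice with both tissues allowed the difference to be taken within each animal. *Apln* was higher in spinal cord in 24 of 24, by 0.89 to 1.67 on the log2 CPM scale. *Aplnr* was higher in 24 of 24, by 3.67 to 5.05, and *Calcrl* in 24 of 24, by 0.73 to 2.37. *Adm* was higher in 23, *Vegfa* in 22 and *Ramp2* in 18 mice. *Ramp3* was higher in 0 of the 24, with differences of -3.35 to -2.21. The *Apln* difference had its highest medians in h4/h4 (1.52) and h5/h5 mice (1.54), against 1.20 in C57BL/6J and 1.00 in DBA/1J. The h4/h4 mice (1.23 to 1.67) overlapped C57BL/6J (0.95 to 1.33), and the DBA/1J mice include the one whose brain library lacks cerebellar transcripts. As with the other *Apln* values by genotype, this is a description and was not tested.

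**Figure D5:**
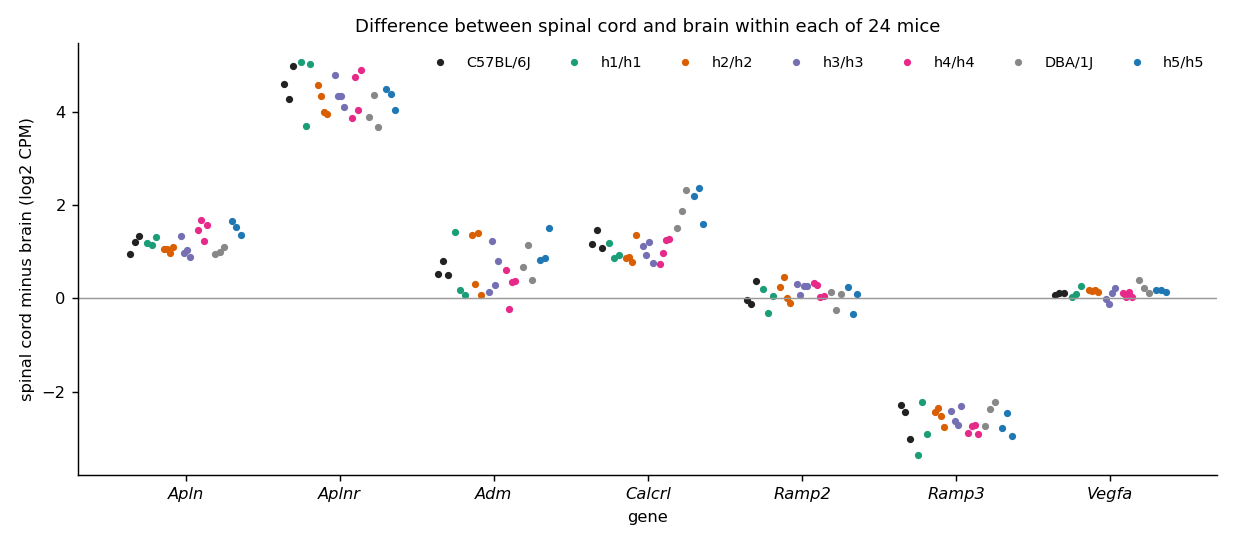
Spinal cord minus brain, in log2 CPM, for each of the 24 mice with both tissues, by gene, with points coloured by genotype. *Aplnr* lies between 3.67 and 5.05, *Apln* between 0.89 and 1.67 and *Calcrl* between 0.73 and 2.37 in all mice, while *Ramp3* lies between -3.35 and -2.21.

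Whether the tissue difference depends on the strain was tested as an interaction in wild-type mice. In edgeR 0 of the 7 genes passed, with 2 unadjusted p-values under 0.05, against 0.321% of all genes. The interaction was 0.65 (SE 0.17) for *Calcrl*, with an adjusted p of 0.148 in edgeR, 0.024 in DESeq2 (where 0.806% of all genes passed) and 0.0275 without the low-count filter (0.648%). Without the DBA/1J brain library that lacks cerebellar transcripts it was 0.78 (edgeR adjusted p = 0.0682). For *Aplnr* it was -0.69 (SE 0.26, edgeR adjusted p = 0.380), and -0.67 (edgeR adjusted p = 0.502) without that library. For *Apln*, *Adm*, *Ramp2*, *Ramp3* and *Vegfa* it lay between -0.16 and 0.13, and between -0.19 and 0.19 without it.

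The regional libraries of wild-type DBA/1J mice placed the genes within the brain. In edgeR 10 of 21 tests passed, in contrasts where 20.6% (hippocampus against cortex), 58.1% (cerebellum against cortex) and 64.0% (hippocampus against cerebellum) of all genes did. *Apln* was highest in cortex, and was 1.11 lower in hippocampus (edgeR adjusted p = 0.00218) and 0.95 lower in cerebellum (edgeR adjusted p = 0.000745). *Vegfa* was highest in cerebellum, with 88.6, 91.01 and 89.1 CPM against 74.6, 72.2 and 60.9 in cortex and 57.5, 54.8 and 57.7 in hippocampus. It was higher in cerebellum than in cortex by 0.33 (edgeR adjusted p = 0.00734), and hippocampus fell below cerebellum by 0.65 (edgeR adjusted p = 5.29e-07). *Apln* and *Vegfa* therefore peaked in different regions.

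*Ramp3* was scarce in hippocampus, with 3.77, 3.28 and 2.27 CPM against 11.5, 8.87 and 7.12 in cortex and 10.3, 12.6 and 10.7 in cerebellum. The hippocampal level was lower than in cortex by 1.57 (edgeR adjusted p = 0.00197) and than in cerebellum by 1.84 (edgeR adjusted p = 3.14e-06). *Ramp2*, by contrast, averaged 12.7 CPM ± 0.724 (SD, n = 3) in hippocampus, which exceeded cortex by 0.56 (edgeR adjusted p = 0.0456) and cerebellum by 0.26, the latter without passing (edgeR adjusted p = 0.0702). That call, and the call for *Vegfa* between hippocampus and cortex (-0.29, edgeR adjusted p = 0.0434), were each lost in 5 of the 6 fits that left out 1 library.

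*Aplnr* was higher in cerebellum than in cortex by 1.19 (edgeR adjusted p = 0.0256, lost in 3 of 6 fits that left out 1 library), and lower in hippocampus than in cerebellum by 0.81 (edgeR adjusted p = 0.0417). The latter was lost in DESeq2 (adjusted p = 0.0807), with the mouse as a replicate block (0.0773) and in 4 of 6 fits that left out 1 library. *Calcrl* and *Adm* passed in none of the 3 contrasts. Of the VEGF receptors, the co-receptors *Nrp1* and *Nrp2* were higher in hippocampus than in cortex, by 2.09 and 1.42. Of the 22 genes of the hypoxia list, 7 were higher and 11 lower in cerebellum than in cortex. *Car9*, *Hk2* and *Hif1a* were higher by 4.29, 1.66 and 1.25, and *Pdk1* fell by 1.25. None of the 11 endothelial genes was called higher in cerebellum than in cortex, and 3 were lower, *Egfl7*, *Esam* and *Tek*. Other cell types moved in the same contrasts. In cerebellum against cortex all 6 choroid plexus and all 5 meningeal genes were higher, all 5 microglial and all 3 oligodendrocyte precursor genes were lower, and of 5 astrocyte genes 2 were higher (*Aqp4*, 1.92, and *Slc1a3*, 1.20) and 1 lower (*Gfap*, -0.73). In hippocampus against cortex 5 of 6 choroid plexus genes, 3 of 5 meningeal genes, 2 of 5 astrocyte genes and 2 of 8 mural genes (*Myh11*, 0.84, and *Tagln*, 0.87) were higher. Over all 3 contrasts, with hippocampus against cerebellum included, edgeR called 7 of 33 endothelial, 6 of 24 mural, 9 of 15 astrocyte and 12 of 15 microglial tests. The part of these shifts in the regional differences was not tested.

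The labelled sex of the mice did not separate the genes. In edgeR 0 of 14 tests in brain and spinal cord passed, with 0 unadjusted p-values under 0.05 and 0 calls in DESeq2. Over all genes 0.0855% passed in brain and 0.146% in spinal cord. *Apln*, which is X-linked, differed between females and males by -0.03 in brain and -0.06 in spinal cord.

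Finally, the genes whose levels followed each member most closely over the 66 libraries were listed, after centring log2 CPM within the 7 sets of tissue and background. The correlations describe these libraries, which share tissues, animals and the genotype difference. For *Apln* they were *Irak2* (r = 0.87), the glutamine synthetase gene *Glul* (0.86), the deiodinase gene *Dio2* (0.85), *Heph* (0.84) and *Acsl3* (0.84). When each genotype group was also centred on its own mean, these fell to 0.47, 0.62, 0.42, 0.38 and 0.36, so much of the likeness came from differences between the groups. For h2/h2, h3/h3 and h4/h4 these differences include background and cohort as well as the mutation. For *Aplnr* the nearest was *Prph* (0.66), for *Calcrl* *Tmem47* (0.68), for *Ramp3* *Cux2* (0.61) and for *Vegfa* *Rims4* (0.69). *Adm* followed no gene closely, with *Tead2* nearest at 0.50. *Ramp2* was nearest to *Slc2a1* (0.65), a gene of the hypoxia list and a marker of the blood-brain barrier.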

How the data were processed

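Brain hemisections, spinal cords and, for 6 mice, cortex, hippocampus and cerebellum were profiled by bulk RNA-seq (66 libraries, 20 groups of 3 or 4 mice). For h2/h2, h3/h3 and h4/h4 the sample labels list more mice than the study's text gives per condition, and the labels were followed. According to the study's methods and processing notes, the authors trimmed reads with Trim Galore, aligned them with STAR to GRCm38 and quantified genes with RSEM. The deposited values are expected counts and TPM per Ensembl gene. RSEM shares ambiguous reads between transcripts, so expected counts need not be whole (5.07% were not), and they were rounded before testing. TPM, which was not tested, was used for levels between genes, for ranges over libraries and for sums of gene lists.

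Symbols came from a later GENCODE annotation (41407 of 45706 identifiers) and positions from RefSeq on GRCm38.p6 (31197). No 2 libraries held identical values (0 pairs). Genes passing filterByExpr were tested with edgeR 4.0.16 (R 4.3.3): TMM scaling, quasi-likelihood fit of the compared groups only, Benjamini-Hochberg adjustment over all genes tested and a threshold of 0.05. CPM was computed from TMM-scaled expected counts, with a prior count of 2 for log2 values. The 13 genotype comparisons set each allele against the wild-type controls described at the start. Where an allele's strain background was not sampled as wild type, these controls were not of that background. The other comparisons were 2 of strain, 2 of tissue, 3 of region, the interaction of tissue and strain, and 2 of labelled sex. The procedure was tested on simulated counts. The 7 genes and all lists were chosen with earlier results of these data known. Named were the 7 genes, list members that passed (up to 4 a list and comparison), the genes most correlated with each member (5 for *Apln*, 3 for the others, of which the text gives the first) and *Rorb*.

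Alternatives were DESeq2 1.42.0, its size factors, no low-count filter, a single fit per tissue, a term for sex, a replicate block, and leaving out each library. Libraries with the same number came from the same mouse in the tissue and region comparisons. In the genotype comparisons the number marks no shared animal. Of the h5/h5 mice that share an identifier series with DBA/1J mice, 2 of 3 in brain and spinal cord and 0 of 2 in the regions do so under the same number, so the block does not match these series, and what a series stands for is not given in the sources used here. All 3 pairs correlated above 0.1 only in h1/h1 brain (r of 0.114 to 0.199).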

Additional observations from a re-analysis of the deposited data

Results flagged for a closer look

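Among the 42 gene-by-group sets of 4 mice, 2 had a library far from the other 3 by Dixon's criterion, which chance meets in about 1 of 20 sets. In brain of *Rorb* h3/h3 mice, *Aplnr* was at 0.745 CPM in 1 library and at 1.34 to 1.40 in the others. In spinal cord of *Rorb* h3/h3 mice, *Vegfa* was at 59.4 CPM in 1 library and at 68.5 to 69.7 in the others.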

How the results depend on the processing

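The number of *Apln* comparisons past the threshold was 4 in the edgeR fit and rose to 10 with DESeq2 and 8 without the low-count filter. The interaction of tissue and strain went from 0 genes to 1 under DESeq2 and to 1 without the filter (*Calcrl* in both). With 1 library left out, the counts were 4 to 5 for *Apln*, 2 for the other 6 genes across genotypes, 2 to 4 for strain, 9 to 12 for spinal cord against brain, 7 to 11 for region and 0 for the interaction. Fitted with the replicate block, they were 4, 2, 3, 11 and 9, and 0 for the interaction, so that the pairing removed 1 call, *Aplnr* between hippocampus and cerebellum (-0.80, adjusted p = 0.0773). *Aplnr* changed sign in h5/h5 brain with sex as a covariate (-0.048), and with 1 library left out it ran from -0.31 to 0.62 in h1/h1 brain, from -0.18 to 0.25 in h5/h5 brain and from -0.0020 to 0.12 in h3/h3 spinal cord. The negative values came without h1/h1 replicate 2 (-0.31), without DBA/1J replicate 2 (-0.18) or h5/h5 replicate 3 (-0.0075), and without h3/h3 replicate 2 (-0.0020). The cause was not tested. Depth limits *Adm*, with 22 to 140 reads per library, and *Aplnr* outside the spinal cord, with 15 to 104.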
